A study of Mus musculus with 35 samples.

Results

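The genes described here are 9 genes widely used to mark astrocytes and Bergmann glia in the mouse, namely Gfap, Aqp4, Slc1a2, Slc1a3, Gdf10, Aldh1l1, S100b, Sept4 and Hopx. They were taken by symbol from a list, and each was followed through the map of gene symbols to Iso-seq loci that was deposited with the counts. All 9 were found, out of 55356 genes in the count table, and all 9 were counted on an Iso-seq locus that carries no other gene. The study sequenced rRNA-depleted total RNA, with strand-specific libraries, from adult mice of the C57BL/6J strain, and used long-read Iso-seq from the same tissues to build the gene models. No genotype, treatment or finer age was given. The 29 libraries fall into 10 groups of one tissue and one sex: brain, cerebellum, heart and colon from females and from males, and the female and male gonad, which are called ovary and testis below. Male heart was measured in 2 libraries and every other group in 3. The labels do not say which part of the brain was taken as brain, nor which libraries came from one animal, so the p-values below measure the spread between these libraries.

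Astrocytes are the glial cells that clear glutamate and potassium from around synapses, wrap blood vessels with endfeet and supply neurons with metabolites. Bergmann glia are a specialised astrocyte of the cerebellum, with cell bodies beside those of the Purkinje cells and radial fibres that reach the surface of the cerebellar cortex and enclose the Purkinje cell synapses. Several of the 9 genes are also used outside the nervous system, Hopx in heart muscle and Sept4 in the sperm tail among them.

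The 9 loci are given in GRCm38 coordinates, which are those of the annotation deposited with the counts. Gfap, the intermediate filament protein of astrocytes, is on the minus strand at chr11:102887340-102897359, with 4 Iso-seq transcripts. Aqp4 encodes the water channel of the endfeet and has 11 Iso-seq transcripts. The 2 glial glutamate transporter genes are Slc1a2, which encodes GLT-1, on the plus strand at chr2:102658689-102790784, and Slc1a3, which encodes GLAST, on the minus strand at chr15:8634126-8710754. Gdf10, a secreted TGF-beta family ligand, is on the plus strand at chr14:33923456-33935281 and has a single Iso-seq transcript. Aldh1l1, an enzyme of folate metabolism, is on the plus strand at chr6:90486420-90600202. S100b, a calcium-binding protein, is on the plus strand at chr10:76253883-76263016. Sept4, a septin of the cytoskeleton, is on the plus strand at chr11:87566689-87590540, and Hopx, a small homeodomain protein that does not bind DNA, is on the minus strand at chr5:77086992-77115210. Exons of Hopx share 404 bases with the antisense gene Hopxos, and those of Aldh1l1 share 438 bases with Gm15756 on the opposite strand and 112 bases with Gm45901 on the same strand. Exons of Slc1a2 share 189 bases with Gm13872 on the opposite strand, and the other members share none. The strand setting used in counting is not given in the sources used here, so reads in these shared stretches cannot be told apart.

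The start sites matter for what was counted, because a locus sums every start. The RefSeq table of GRCm38.p6 held 12 promoters for 8 of the members, 1 each except Hopx with 2 and Sept4 with 4. At Sept4, 8 of the 13 Iso-seq transcripts began within 100 bases of the most upstream RefSeq start. At Hopx, 2 of the 3 transcripts began within 100 bases of the downstream start. At Slc1a3, only 2 of the 20 transcripts began within 100 bases of the RefSeq start. At Slc1a2 no transcript began within 100 bases of the RefSeq start, and the nearest began 47213 bases from it. The single transcript of Gdf10 began 131 bases from its RefSeq start. The 250 bases before 3 of these starts are printed because the genes behind them, Slc1a3, Sept4 and Hopx, were all higher in cerebellum than in brain, as described below. Each is written 5′ to 3′ on the strand of its gene, from RefSeq, GRCm38.p6, at chr15:8710808-8711057 (minus strand), chr11:87566439-87566688 (plus strand) and chr5:77095268-77095517 (minus strand), and the capitals mark matches to the motifs named after them.
Slc1a3: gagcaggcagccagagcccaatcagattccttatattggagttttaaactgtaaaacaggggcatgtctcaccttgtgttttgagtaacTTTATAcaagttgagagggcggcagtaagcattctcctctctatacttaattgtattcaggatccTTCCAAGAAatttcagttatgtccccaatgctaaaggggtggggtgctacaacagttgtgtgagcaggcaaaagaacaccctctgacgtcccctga
Sept4: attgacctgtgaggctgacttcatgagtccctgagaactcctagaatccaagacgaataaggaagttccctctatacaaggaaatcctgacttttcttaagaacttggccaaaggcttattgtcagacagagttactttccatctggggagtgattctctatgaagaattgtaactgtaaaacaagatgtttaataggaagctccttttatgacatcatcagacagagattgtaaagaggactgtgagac
Hopx: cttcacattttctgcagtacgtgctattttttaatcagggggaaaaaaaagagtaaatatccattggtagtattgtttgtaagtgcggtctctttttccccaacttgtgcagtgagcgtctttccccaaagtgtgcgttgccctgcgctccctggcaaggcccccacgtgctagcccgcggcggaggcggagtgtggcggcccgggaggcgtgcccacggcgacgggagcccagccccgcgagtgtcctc

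Both strands of the whole 300-base windows were searched for 4 motifs, the STAT motif TTCNNNGAA, the palindromic NFI motif, TATAAA and the SOX motif ACAAAG. The matches found did not overlap one another. The window of Slc1a3 held the STAT letters 96 bases before the start and TATAAA, on the opposite strand, 161 bases before it. The window of Gfap held the STAT letters 2 bases before its start, and 1 of the 4 windows of Sept4, not the one printed, held ACAAAG at 2 places. The other 9 windows held none of the 4. Over all 32851 promoters in the table, the STAT letters were in 8.30%, TATAAA in 13.6%, ACAAAG in 18.7% and the NFI letters in 0.0365%.

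Library totals ranged from 11742417 to 36194255 counts, with a median of 24403774. Levels are given as FPKM, computed from the deposited counts with the union of exons of each gene, so that genes of different length can be set side by side. Markers of neurons, granule cells, Purkinje cells, heart muscle, colon epithelium, ovary and spermatids were each highest in the tissue they name. A few libraries stood apart. Female heart 3 had a summed level of 5 adipocyte genes (Adipoq, Plin1, Cfd, Lep and Ucp1) of 3189 FPKM, against at most 6.67 FPKM in the other hearts, and the lowest cardiomyocyte sum of the hearts, 4318 FPKM. Female cerebellum 2, male cerebellum 3 and female brain 1 had the highest sums of 4 posterior hindbrain genes (Hoxa5, Hoxb3, Hoxb5 and Slc6a5) within their tissue and sex, 26.5, 17.9 and 3.25 FPKM. In female brain 1 most of that sum was Slc6a5, at 2.48 FPKM. Hoxb3 and Hoxb5 were at 0.402 and 0.377 FPKM there, and Hoxa5 had 0 counts. Slc6a5 was at 2.27 FPKM or more in every cerebellum library. Both lists were chosen after their values had been seen. Where leaving them out changed a call described below, the value without them is given. In bulk tissue, fewer cells of a type and less RNA per cell cannot be told apart.

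In brain, all 9 genes were higher than in the 4 non-neural tissues (heart, colon, ovary and testis) when the log2 levels of the tissues were averaged with equal weight, and in cerebellum all 9 were higher as well. On the FPKM scale this was not so for Hopx in brain, where the mean was 22.97 FPKM against 34.9 FPKM for the mean of the 4 non-neural tissues, with heart at 129 FPKM. The test was edgeR's quasi-likelihood test at an adjusted p under 0.05 over 29911 genes, and 34.2% of those genes were called higher in brain and 32.7% higher in cerebellum. The log2 difference between brain and the non-neural tissues was 9.66 for Slc1a2, 8.29 for Gfap, 5.91 for S100b and 5.77 for Slc1a3. For Aqp4, which the gonads held at the limit of counting, it was 5.13 with heart and colon as the only non-neural tissues. It was much smaller for the remaining 4 genes, at 2.42 for Sept4, 2.22 for Aldh1l1, 1.52 for Hopx and 1.25 for Gdf10. Without female heart 3 it was 6.06 for Slc1a3, 2.64 for Aldh1l1 and 1.50 for Gdf10, and all 9 genes were again called higher in both tissues. For Slc1a2, Gfap, Aqp4, S100b and Slc1a3, the lowest brain library lay above every one of the 17 non-neural libraries, a pattern that 13.3% of all genes tested showed. In cerebellum the same was true of 7 of the 9, all but Aldh1l1 and Hopx, against 12.1% of all genes tested. The median difference over all genes tested was -0.14 for brain and the split of calls depended on the scaling: with edgeR's TMM factors 57.0% of the genes called between brain and the non-neural tissues were higher in brain, with RLE size factors 51.2% and with DESeq2 46.2%, where the median was -0.33. All 9 genes were called higher in both tissues under each of these scalings. With heart and colon as the only non-neural tissues, the difference was 3.22 for Sept4 and 3.20 for Aldh1l1, and that of Hopx turned to -0.47 (adjusted p = 0.0299).

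**Figure D1:**
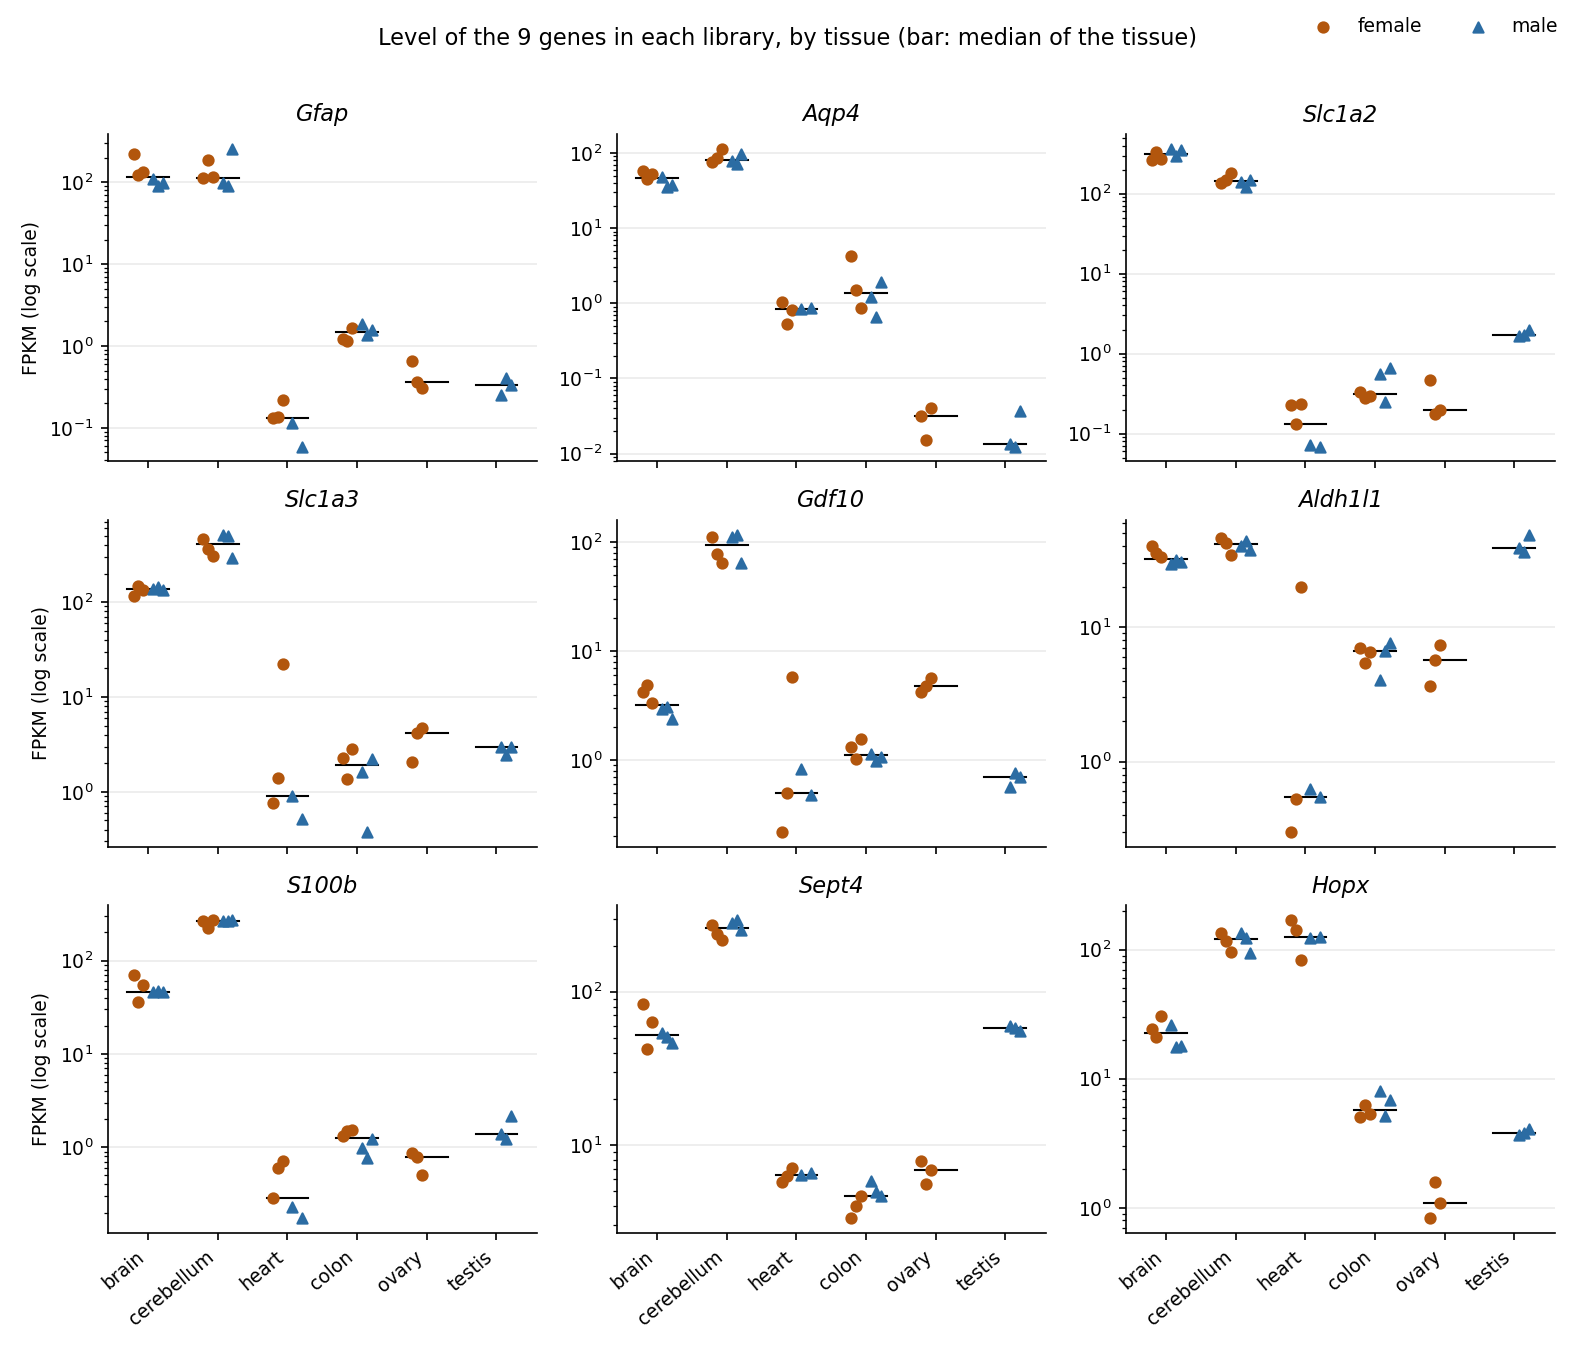
Level of each of the 9 genes in each of the 29 libraries, in FPKM on a log scale that differs between panels, by tissue, with females as circles, males as triangles and the median of each tissue as a bar. By mean level, Slc1a2 was highest in brain, Hopx in heart, Aldh1l1 in testis and the other 6 genes in cerebellum. By median, Aldh1l1 was highest in cerebellum (41.6 FPKM, testis 38.7 FPKM) and Gfap in brain (115 FPKM, cerebellum 114 FPKM). Neither of these pairs of tissues was called different. Female heart 3 stands above the other hearts for Slc1a3 (22.5 FPKM), Gdf10 (5.74 FPKM) and Aldh1l1 (19.95 FPKM).

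Between brain and cerebellum, 7 of the 9 genes differed, 1 of them higher in brain and 6 higher in cerebellum. Of all genes tested, 25.9% were called in this comparison, 15.2% higher in brain and 10.7% higher in cerebellum. Slc1a2 was the gene higher in brain. Gdf10, S100b, Hopx, Sept4, Slc1a3 and Aqp4 were higher in cerebellum, by mean FPKM between 26.3-fold for Gdf10 and 1.90-fold for Aqp4. Gfap and Aldh1l1 were not called. The 6 brain and 6 cerebellum libraries did not overlap for the 7 genes that were called, and overlapped for the other 2. Of all genes tested, 18.6% did not overlap. The median log2 difference of the 9 genes, cerebellum minus brain, was 1.44, against 0 over all genes tested.

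**Figure D2:**
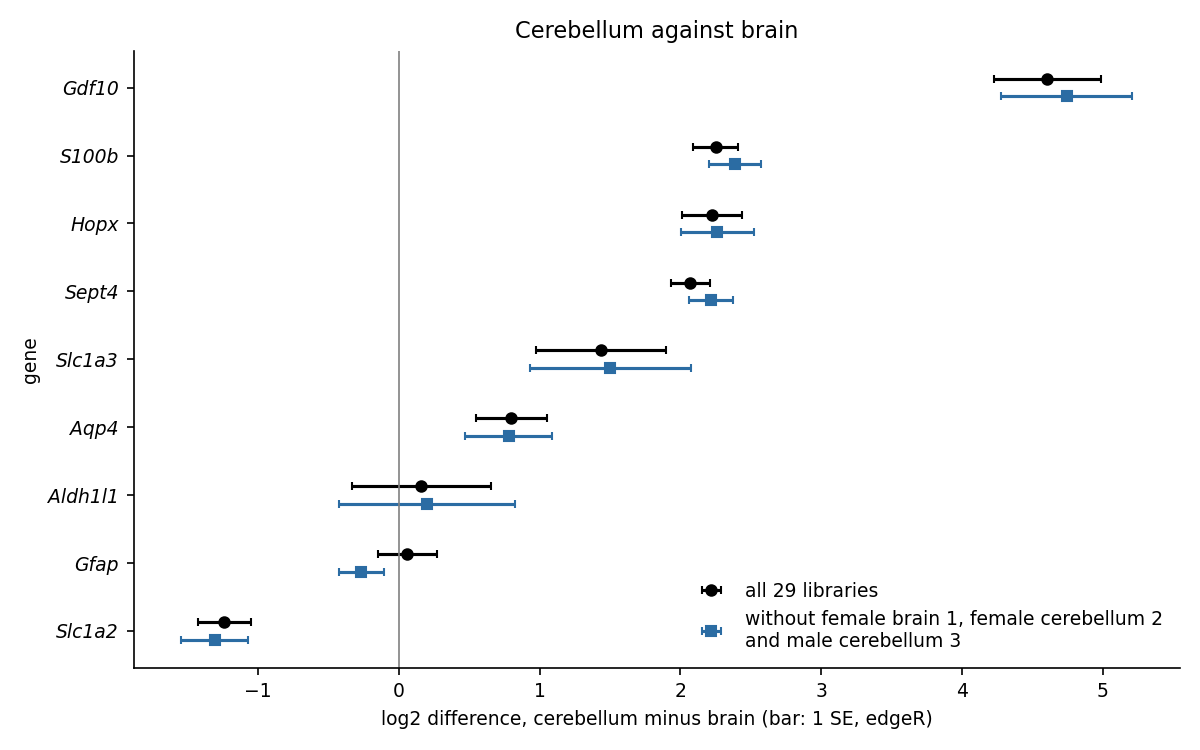
Log2 difference between cerebellum and brain for each of the 9 genes (edgeR, bars 1 SE), with all 29 libraries as circles and without female brain 1, female cerebellum 2 and male cerebellum 3 as squares. The differences run from -1.24 for Slc1a2 to 4.61 for Gdf10. Leaving out those 3 libraries, which held the 3 highest Gfap values, moves Gfap from 0.06 to -0.27.

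The glutamate transporters Slc1a2 and Slc1a3 take up most of the glutamate released in the brain, and they moved in opposite directions between the tissues. Slc1a2 in brain ranged from 262 to 363 FPKM (median 316), and in cerebellum from 121 to 182 FPKM (median 143). Every brain library was above every cerebellum library, and the log2 difference was 1.24 (SE 0.19, adjusted p = 1.01e-05, edgeR). Slc1a3 in brain ranged from 116 to 149 FPKM (median 137), and in cerebellum from 292 to 517 FPKM (median 411). Here every cerebellum library was above every brain library, and the log2 difference, cerebellum minus brain, was 1.44 (SE 0.46, adjusted p = 0.0237, edgeR). The spread of Slc1a3 in that test took in the hearts, where female heart 3 stood at 22.5 FPKM and the other 4 between 0.512 and 1.39 FPKM. Without female heart 3 the difference of Slc1a3 was again 1.44, with an SE of 0.26 and an adjusted p of 0.000109, and with the brain and cerebellum libraries alone it was 1.52 (SE 0.15, adjusted p = 1.61e-06). The call was lost without female brain 1 (adjusted p = 0.0521), without female cerebellum 1 (adjusted p = 0.0535) and without female brain 1, female cerebellum 2 and male cerebellum 3 together (difference 1.50, adjusted p = 0.0695).

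Within a library, the ratio of Slc1a2 to Slc1a3 needs no scaling between libraries. In brain it was 2.25, 2.24 and 2.04 in the females and 2.61, 2.06 and 2.63 in the males. In cerebellum it was 0.300, 0.405 and 0.588 in the females and 0.269, 0.245 and 0.514 in the males. Slc1a2 was thus the higher of the pair in 6 of 6 brain libraries and the lower in 6 of 6 cerebellum libraries. The mean log2 ratio was 1.20 ± 0.16 (SD, n = 6) in brain and -1.45 ± 0.52 (SD, n = 6) in cerebellum, a difference of 2.65. Since neither gene overlapped between the tissues and they moved in opposite directions, the ratio could not overlap either, and its difference is given as a description, with no test. The ratio depends on the lengths the counts are divided by: with the GENCODE exon lengths the mean level of Slc1a3 was 77.1 FPKM in brain and 229 FPKM in cerebellum, in place of 136 and 406 FPKM, and the ratio ran from 3.11 to 3.99 in brain and from 0.373 to 0.893 in cerebellum. The order of the pair was the same in all 12 libraries with either length. In the non-neural tissues both were low. The testis held Slc1a2 at 1.64, 1.73 and 1.96 FPKM, above the colon (log2 difference 2.56, SE 0.23, adjusted p = 1.98e-10, edgeR), the ovary and the heart, none of which passed 0.665 FPKM in any library. Slc1a3 in ovary, testis and colon lay between 0.375 and 4.76 FPKM, and neighbours among the 4 non-neural tissues did not differ beyond their spread (adjusted p between 0.101 and 1.00, edgeR). Without female heart 3, Slc1a3 was higher in testis than in colon by 1.06 on the log2 scale (SE 0.33, adjusted p = 0.00543, edgeR) and than in heart by 1.33 (SE 0.37, adjusted p = 0.00238). Ovary was then higher than colon by 0.83 (adjusted p = 0.0366) and than heart by 1.11 (adjusted p = 0.0149). The summed level of the 5 adipocyte genes also varied within these tissues, from 33.1 to 394 FPKM in colon, from 22.3 to 339 FPKM in ovary and from 135 to 174 FPKM in testis. Male colon 2 was the lowest colon library and female colon 3 the highest in both this sum and Slc1a3 (0.375 and 2.83 FPKM), and ovary 1 was the lowest ovary library in both (Slc1a3 at 2.06 FPKM). The highest ovary library differed, with ovary 2 highest in the sum (339 FPKM) and ovary 3 in Slc1a3 (4.76 FPKM). In testis, testis 2 was the lowest and testis 3 the highest in both. The part of adipocytes in these differences of Slc1a3 was not tested.

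**Figure D3:**
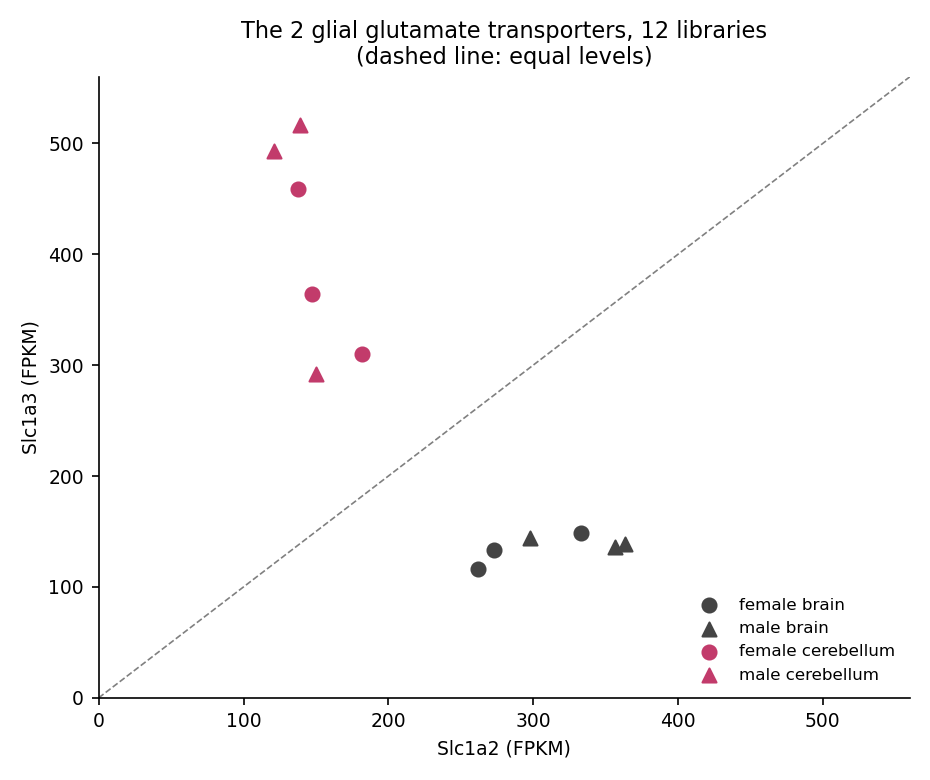
Slc1a3 against Slc1a2, both in FPKM, in the 6 brain and 6 cerebellum libraries (circles female, triangles male), with a dashed line where the levels are equal. All 6 brain libraries lie below the line and all 6 cerebellum libraries above it.

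The rest of the glutamate transporter family is largely neuronal or peripheral. Of its 5 other genes, 2 were higher in brain, namely Slc1a1, which encodes a neuronal transporter (log2 difference 1.86, adjusted p = 0.017, edgeR), and Slc1a4, a neutral amino acid transporter (0.54, adjusted p = 0.011). Slc1a6, the transporter of Purkinje cells, was higher in cerebellum by 4.24 (adjusted p = 3.6e-12), with a mean of 47.7 FPKM there and 2.28 FPKM in brain. Slc1a5 and Slc1a7 were not called. Of all genes tested, 15.2% were higher in brain and 10.7% in cerebellum.

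Gdf10, a ligand expressed by Bergmann glia, had the widest gap of the 9 genes between the tissues. In brain it ranged from 2.41 to 4.86 FPKM (median 3.22), and in cerebellum from 63.9 to 118 FPKM (median 95.1). The lowest cerebellum library was 13.1 times the highest brain library, and the log2 difference, cerebellum minus brain, was 4.61 (SE 0.38, adjusted p = 8.19e-10, edgeR). The ovary, with 4.22, 4.75 and 5.64 FPKM, was not called different from brain (log2 difference, ovary minus brain, 0.08, SE 0.41, adjusted p = 0.938). In heart, female heart 3 had 5.74 FPKM and the other 4 libraries between 0.218 and 0.832 FPKM. Colon and testis lay between 0.573 and 1.57 FPKM. Brain was above heart (log2 difference 1.27, SE 0.40, adjusted p = 0.00803), although female heart 3 was above all 6 brain libraries. Without that library the difference was 2.27 (SE 0.24, adjusted p = 3.58e-09). With the GENCODE exon length, the mean level of Gdf10 was 1.76 FPKM in brain and 46.4 FPKM in cerebellum, in place of 3.48 and 91.6 FPKM.

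Hopx, which restrains the serum response factor in heart muscle and marks radial glia, was high in both cerebellum and heart. Brain ranged from 17.6 to 30.9 FPKM (median 22.8) and cerebellum from 93.9 to 135 FPKM (median 120). The 2 ranges did not overlap, and the log2 difference, cerebellum minus brain, was 2.22 (SE 0.21, adjusted p = 6.42e-09, edgeR). The hearts held 169, 141 and 83.5 FPKM in females and 124 and 126 FPKM in males, with female heart 3 the lowest of them. The heart libraries overlapped those of cerebellum in FPKM, while the test put heart above cerebellum by 0.77 on the log2 scale (SE 0.22, adjusted p = 0.00324) and above brain by 2.99 (SE 0.23, adjusted p = 5.04e-12). Without female heart 3 these differences were 0.96 (SE 0.16, adjusted p = 6.23e-06) and 3.18 (SE 0.16, adjusted p = 1.11e-15). Colon, testis and ovary were lower, with medians of 5.77, 3.80 and 1.10 FPKM. The overlapping antisense gene Hopxos followed Hopx across the libraries, at 10.1 FPKM in brain and 47.6 FPKM in cerebellum.

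Sept4 forms septin filaments beneath the membrane of Bergmann glia and the ring of the sperm tail, and it was high in cerebellum, testis and brain. Brain ranged from 42.5 to 83.2 FPKM (median 52.0), cerebellum from 218 to 293 FPKM (median 262), and the testis held 60.1, 57.7 and 55.8 FPKM. Cerebellum lay above brain without overlap, by 2.07 on the log2 scale (SE 0.14, adjusted p = 5.48e-12, edgeR), and above testis by 1.82 (SE 0.18, adjusted p = 5.96e-10). Testis and brain overlapped and were not called different (0.25, SE 0.16, adjusted p = 0.168). Heart, colon and ovary lay between 3.36 and 7.86 FPKM. Of 11 other septin genes and partners that could be counted, 3 were higher in brain and 4 in cerebellum, with a median near 0 (0.12, cerebellum minus brain), where 15.2% and 10.7% of all genes tested were called. Cdc42ep4, a partner of septins in Bergmann glia, was the one with the smallest p among those higher in cerebellum (2.05, adjusted p = 6.7e-10), at 38.2 FPKM there and 8.47 FPKM in brain. Sept9 was the one higher in brain with the smallest p (1.46, adjusted p = 5.9e-08). Sept3 and Sept5 shared loci with other genes and were left out of these counts.

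S100b is found in astrocytes, in Bergmann glia and also in some oligodendrocytes. In brain it ranged from 35.6 to 70.3 FPKM (median 46.3), with female brain 1 the highest, and in cerebellum from 226 to 271 FPKM (median 264), with female cerebellum 2 the lowest. No cerebellum library came near the brain range, and the log2 difference, cerebellum minus brain, was 2.25 (SE 0.16, adjusted p = 2.05e-11, edgeR). The highest non-neural library was testis 3 at 2.17 FPKM. The summed level of 4 oligodendrocyte markers overlapped between the tissues, from 648 to 1384 FPKM in brain and from 610 to 1866 FPKM in cerebellum, with medians of 812 and 1246 FPKM. The higher median was thus in cerebellum, as for S100b, and the part of oligodendrocytes in the difference of S100b was not tested. The level of S100b depends on the length it is divided by: with the GENCODE exon length the means were 111 FPKM in brain and 579 FPKM in cerebellum, in place of 49.8 and 259 FPKM.

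Aqp4 differed less. In brain it ranged from 35.5 to 58.1 FPKM (median 46.0) and in cerebellum from 71.4 to 113 FPKM (median 81.4). The ranges did not overlap, and the log2 difference, cerebellum minus brain, was 0.80 (SE 0.25, adjusted p = 0.0188, edgeR). The call was lost without female brain 1, female cerebellum 2 and male cerebellum 3 together (0.78, adjusted p = 0.0777), and with the library code of the labels as a block (0.67, adjusted p = 0.101). Heart and colon held Aqp4 at 0.536 to 4.30 FPKM, with female colon 1 the highest. The gonads were at the limit of counting, with 3, 2 and 6 counts in the 3 ovary libraries and 2, 2 and 6 in the 3 testis libraries, so no fold against the gonads is given.

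Gfap, the classical astrocyte marker, was not called different between the tissues. Brain ranged from 90.5 to 225 FPKM (median 115), and cerebellum from 90.6 to 257 FPKM (median 114). The ranges lay almost on top of each other, and the log2 difference, cerebellum minus brain, was 0.06 (SE 0.21, adjusted p = 0.957, edgeR). The 3 highest values were in the libraries that led their tissue and sex in posterior hindbrain genes, 225 FPKM in female brain 1, 187 FPKM in female cerebellum 2 and 257 FPKM in male cerebellum 3. Those 3 libraries had oligodendrocyte sums of 1384, 1332 and 1866 FPKM, the highest of the brains and 2 of the 3 highest of the cerebella. Female cerebellum 1 and female cerebellum 3 had posterior hindbrain sums of 8.51 and 6.38 FPKM, above the 3.25 FPKM of female brain 1. Their Gfap was 112 and 116 FPKM. Leaving out the libraries with the 3 highest values had to lower the upper end of both ranges. Without female brain 1, female cerebellum 2 and male cerebellum 3, Gfap ranged from 90.5 to 134 FPKM in 5 brain libraries. It ranged from 90.6 to 116 FPKM in 4 cerebellum libraries. The log2 difference, cerebellum minus brain, was then -0.27 (SE 0.16, adjusted p = 0.273, edgeR). Without male cerebellum 3 alone it was -0.27 as well (adjusted p = 0.294). The part of the posterior hindbrain in these Gfap values was not tested. Among the other tissues, colon had the most Gfap, 1.15 to 1.83 FPKM, above ovary by 2.06 on the log2 scale (SE 0.32, adjusted p = 6.38e-06), without overlap.

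**Figure D4:**
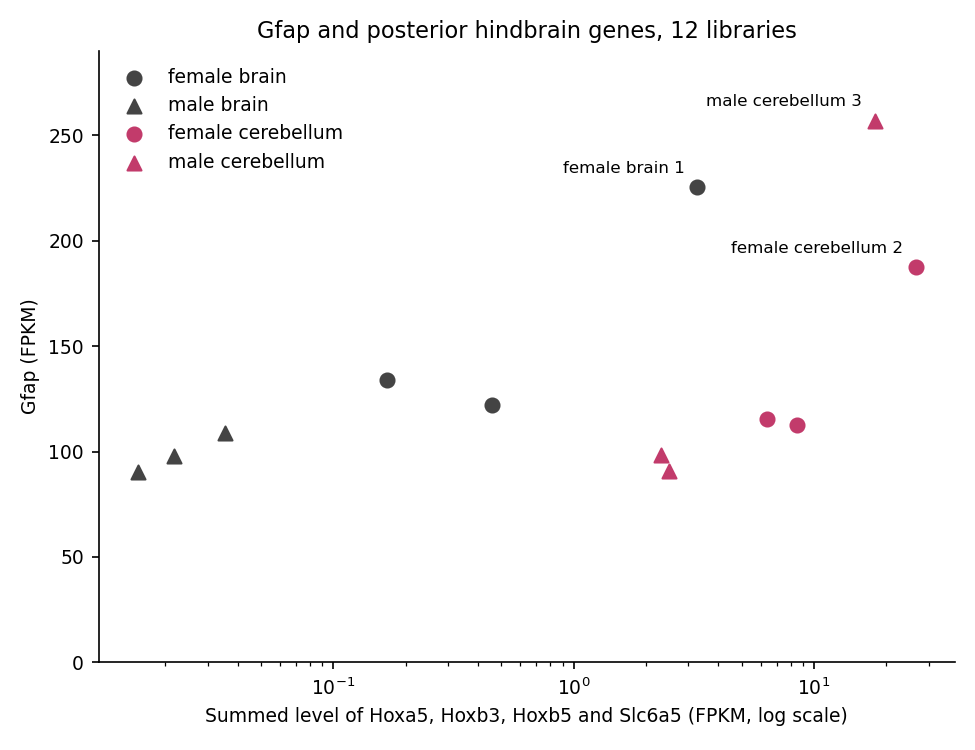
Gfap, in FPKM, against the summed level of Hoxa5, Hoxb3, Hoxb5 and Slc6a5, in FPKM on a log scale, in the 6 brain and 6 cerebellum libraries (circles female, triangles male). Gfap was above 180 FPKM in female brain 1, female cerebellum 2 and male cerebellum 3 and at most 134 FPKM in the other 9 libraries.

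Aldh1l1, widely used as a marker of all astrocytes, was high in brain, cerebellum and testis, with no call among the 3 when all libraries were used. Brain ranged from 29.8 to 40.4 FPKM (median 32.2), cerebellum from 34.3 to 46.4 FPKM (median 41.6), and the testis held 38.7, 36.4 and 48.9 FPKM. The 3 ranges overlapped. The log2 difference, cerebellum minus brain, was 0.16 (SE 0.49, adjusted p = 0.935, edgeR), and that of testis over cerebellum was 0.35 (SE 0.59, adjusted p = 0.613). With the brain and cerebellum libraries alone the difference between them was 0.24, with a smaller SE of 0.10 and an adjusted p of 0.0565. In heart, female heart 3 had 19.95 FPKM, 32.1 times the highest of the other 4, which lay between 0.298 and 0.621 FPKM. Without female heart 3, testis was called above brain by 0.52 (SE 0.19, adjusted p = 0.0169), while cerebellum minus brain was 0.16 (SE 0.16, adjusted p = 0.519) and testis minus cerebellum 0.36 (SE 0.19, adjusted p = 0.0969). Brain was above colon, which ranged from 4.04 to 7.67 FPKM, by 2.56 on the log2 scale (SE 0.53, adjusted p = 0.000179).

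Markers of other cells moved with the comparison of brain and cerebellum. The sum of 3 Purkinje cell markers was 1358 to 2442 FPKM in cerebellum and 38.7 to 52.4 FPKM in brain, and that of 3 granule cell markers was 133 to 246 FPKM and 1.51 to 11.1 FPKM. The sum of 3 choroid plexus markers was 1024 to 3886 FPKM in cerebellum and varied widely in brain, from 19.8 to 1561 FPKM. The sum of 3 forebrain neuron markers was lower in cerebellum, 29.5 to 49.7 FPKM, than in brain, 147 to 238 FPKM, without overlap. The sum of 2 general neuron markers overlapped narrowly, with 415 to 745 FPKM in cerebellum (median 542) and 739 to 1057 FPKM in brain (median 887). The sum of 4 microglia markers was lower in cerebellum, 28.2 to 38.8 FPKM, than in brain, 60.9 to 83.4 FPKM. The sum of 3 ependymal markers overlapped, with 4.36 to 21.9 FPKM in brain and 15.3 to 25.4 FPKM in cerebellum. The sums for oligodendrocyte precursors, endothelial cells and smooth muscle overlapped as well. None of these markers was at 0 in all libraries of either tissue, and their part in the differences of the 9 genes was not tested.

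Sex was not called for any of the 9 genes, in brain, in cerebellum or as a difference between the 2 tissues. edgeR called 0.0368% of all genes in brain (11 genes), 0.0301% in cerebellum (9 genes) and 0.0% for the interaction (0 genes). At an unadjusted p under 0.05, 1 of the 9 genes passed in brain and 0 in the other 2 comparisons, against 1431, 908 and 1177 of all genes tested. DESeq2 called 52, 24 and 4 genes, and 0 of the 9. The female and male brain libraries did not overlap for Gfap, with 122, 134 and 225 FPKM in females and 90.5, 97.6 and 109 FPKM in males, and the log2 difference, female minus male, was 0.62 (SE 0.30, adjusted p = 1, edgeR). Gdf10 and Aldh1l1 in brain did not overlap between the sexes either, females being higher by 0.49 (SE 0.48) and 0.17 (SE 0.70) on the log2 scale. In cerebellum the sexes overlapped for all 9. Of all genes tested, the sexes did not overlap for 13.4% in brain and 6.76% in cerebellum.

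Most other listed genes of Bergmann glia were higher in cerebellum. Of 12 listed genes, 9 were higher in cerebellum, 0 higher in brain and 3 not called, with a median log2 difference, cerebellum minus brain, of 1.598 against 0 over all genes. Of all genes tested, 10.7% were higher in cerebellum and 15.2% higher in brain. A2m, a protease inhibitor, was higher in cerebellum by 3.66 (adjusted p = 2.7e-10, edgeR), at 41.9 FPKM against 3.33 FPKM. Ptch1, the receptor for Sonic hedgehog, was higher by 1.49 (adjusted p = 1.0e-09) and Gria4, an AMPA receptor subunit of Bergmann glia, by 2.52 (adjusted p = 1.3e-09). The 3 that were not called were Etv5, Fabp7 and Ndp. All 12 were higher in cerebellum than in the non-neural tissues, and 9 of 12 were higher in brain than there, led by Fabp7 (7.36), Gria1 (7.62) and Gria4 (5.33). Of the other 3, Gli1 and Tnc were lower in brain and Wif1 was not called. Over all genes tested these shares were 32.7% for cerebellum and 34.2% for brain. The list holds genes that Purkinje cells and granule cells also express. It was chosen for a cell type of the cerebellum and with earlier results of these data known, so its counts are given as a description.

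Astrocyte genes outside the 9 were called in both directions. Of 49 listed genes, 47 could be counted, and 7 were higher in brain, 17 higher in cerebellum and 23 not called. Among all genes tested, 15.2% were higher in brain, which is close to the share of 7 in 47, and 10.7% were higher in cerebellum, a smaller share than 17 in 47. The 47 genes had a median of 0.26, cerebellum minus brain. Aldoc shared a locus with other genes and Sox2 was not tested. Of 10 genes of potassium, water and the endfeet, 6 were higher in cerebellum, 0 higher in brain and 4 not called (median 0.60), against 10.7% of all genes tested higher in cerebellum. Slc4a4, the sodium bicarbonate cotransporter, was higher there by 1.20 (adjusted p = 5.5e-06, edgeR), Kcnj10, the Kir4.1 potassium channel, by 0.88 (adjusted p = 5.0e-05), and Atp1b2, a sodium pump subunit, by 0.78 (adjusted p = 0.00014). Of 8 genes of glutamate and amino acid handling, Glul, which encodes glutamine synthetase, was higher in brain, as Slc1a2 was, by 0.84 (adjusted p = 4.7e-05), and the glycine transporter Slc6a9 was higher in cerebellum by 1.33 (adjusted p = 1.4e-06). The other 6 were not called.

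Among 7 counted genes of metabolism, 3 were higher in cerebellum, namely Lcat by 1.76, Acsbg1 by 1.11 and Ndrg2 by 0.86 on the log2 scale, and 0 were higher in brain. For this and the next groups, the shares over all genes tested were again 10.7% higher in cerebellum and 15.2% higher in brain. The 3 gap junction genes Gja1, Gjb6 and Gjb2 were not called. Of 13 secreted proteins and receptors, 4 were higher in brain, led by Chrdl1 (1.67), Mfge8 (0.90) and Clu (0.68), and 3 in cerebellum, namely Sparc (1.75), Gpr37l1 (1.66) and Sparcl1 (0.75). The transcription factors had the widest split. Emx2 and Lhx2, which pattern the forebrain, were higher in brain by 7.70 and 5.67 (adjusted p = 4.6e-14 and 1.7e-13, edgeR), while 4 others were slightly higher in cerebellum, led by Nfia (0.62), Nfib (0.32) and Sox9 (0.50). Against the non-neural tissues, 42 of the 47 were higher in brain and 43 of the 47 in cerebellum, against 34.2% and 32.7% of all genes tested. In brain 3 were lower and 2 were not called, and in cerebellum 3 were lower and 1 was not called. Kcnj10, Ttyh1 and Gjb6 led in brain, with log2 differences of 7.81, 6.40 and 11.05.

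**Figure D5:**
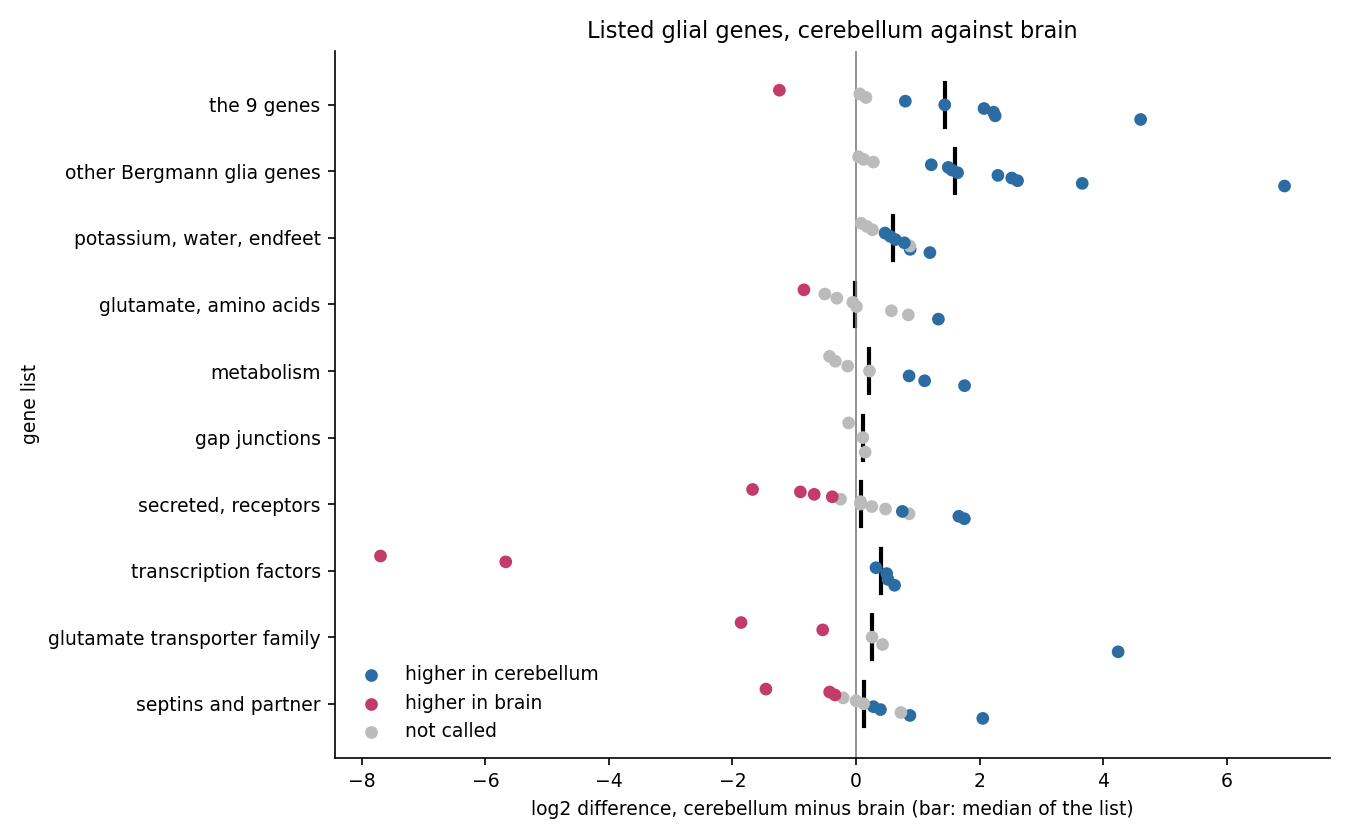
Log2 difference between cerebellum and brain (edgeR) for the 9 genes and for the other genes of each list, 1 point a gene, with the median of each list as a black bar and the genes not called in grey. The medians are 1.44 for the 9 genes and 1.598 for the other Bergmann glia genes, and 0.60 or less for every other list.

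Of 11 paralogs and partners of the 9 genes, 1 was higher in brain and 4 in cerebellum, where 15.2% and 10.7% of all genes tested were called. Vim, an intermediate filament gene like Gfap, was higher in cerebellum by 2.44 (adjusted p = 3.6e-12, edgeR), with means of 246 and 41.7 FPKM, and the other filament genes Nes, Synm and Des were not called. The water channel gene Aqp1, which choroid plexus expresses, was higher in cerebellum by 2.21 (adjusted p = 9.4e-05), as was Aldh1l2, the mitochondrial relative of Aldh1l1, by 1.30 (adjusted p = 0.00012). Bmp3, the closest relative of Gdf10 on the list, went the opposite way, higher in brain by 3.54 (adjusted p = 1.0e-05), at 2.62 against 0.256 FPKM.

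The profile of each gene over the 29 libraries was compared with those of 23732 genes by Pearson's r of log2 CPM, as a description, since libraries of one tissue share most of their profile. Slc1a2 was most like Gpr158 (r = 0.992), Slc12a5 and Gm20208, and Slc1a3 was most like Ntrk3 (r = 0.984). Gfap was most like Nfasc (r = 0.989), F730043M19Rik and Kcnj10. Gdf10 was most like Gm48752 (r = 0.957) and Pcp2, a Purkinje cell gene at 1405 FPKM in cerebellum and 3.90 FPKM in brain. S100b was most like Gria1 (r = 0.986), Aqp4 most like Kcna1 (r = 0.983) and Sept4 most like Gm37247 (r = 0.981). Hopx was most like its antisense gene Hopxos (r = 0.995), and Aldh1l1 was most like Asns (r = 0.975), with Gm15756, which overlaps it on the opposite strand, second (r = 0.953). Among the 9 themselves, r was highest between Gfap and S100b and between Slc1a3 and S100b (0.957 for each pair).

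The 9 genes differed in how far they were restricted to one tissue. The tau index, which is 0 for a gene with the same level in all 6 tissues and 1 for a gene found in 1 tissue, had a median of 0.898 over the 9 genes, against 0.734 over the 24678 genes with at least 1 FPKM in a tissue. It was lowest for Aldh1l1 (0.563) and Hopx (0.766), and highest for Gdf10 (0.974) and S100b (0.959).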

How the data were processed

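Members and gene lists were chosen with earlier results of these data known. The deposited table held raw counts per gene, which the authors made by aligning the RNA-seq reads (the submitters' processing notes name HISAT2 2.0.5, featureCounts 1.6.3 and mm10) and counting uniquely mapped reads over an annotation that joins 13045 Iso-seq loci to 42311 ENSEMBL genes. Reads shared by several places are thereby lost. All 29 count columns were mapped to their libraries by label, with 0 other sample columns.

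Counts were tested with edgeR 4.0.16 in R 4.3.3: 1 mean for each of the 10 groups, TMM factors, filterByExpr (29911 genes kept), the quasi-likelihood F test on contrasts of tissue means weighted equally over sexes and tissues, Benjamini-Hochberg adjustment over all genes kept, and a threshold of 0.05. The scripts were tested on simulated data. An SE is the log2 difference divided by the square root of F. FPKM used each library's total and the union of exons. Among 28 pairs of libraries within a group, 0 were identical, and all differed by more than sampling noise.

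All 9 members are named. Of each related list, at most 3 genes per comparison and direction are named, those with the smallest adjusted p, and genes counted as not called were named after their values were seen. Genes on a locus with another gene were left out of the counts. The 3 genes most alike were ranked by r among genes tested with a tissue mean of at least 1 FPKM. Alternatives were DESeq2 1.42.0, RLE factors, no filter on low counts, blocks for the replicate number and the library code, fewer tissues, GENCODE exon lengths, each library left out in turn, and, added after seeing the data, leaving out female brain 1, female cerebellum 2 and male cerebellum 3 together, and female heart 3 from the tissue pairs.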

Additional observations from a re-analysis of the deposited data

Results flagged for a closer look

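Each gene was checked for a library far from the others of its tissue, in 36 sets of 5 or 6 libraries, by the gap to the nearest library over the whole range. This picked out 6 values. Chance gives about 1 in 20 sets where values are normal and sets independent. Here 3 of the 6 values came from 1 library, so the sets are not independent and no excess over chance is claimed. Gfap in female brain 1 was 225 FPKM, with the next brain library at 134 FPKM. Aqp4 in female colon 1 was 4.30 FPKM, with the next colon library at 1.90 FPKM. S100b in female cerebellum 2 was low, at 226 FPKM, with the next cerebellum library at 263 FPKM. The remaining 3 values were in female heart 3, the heart library with adipocyte genes, with Slc1a3 at 22.5 FPKM (next heart 1.39), Gdf10 at 5.74 FPKM (next 0.832) and Aldh1l1 at 19.95 FPKM (next 0.621). In the same library Hopx, at 83.5 FPKM, was the lowest of the hearts.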

How the results depend on the processing

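Of 228 recomputed counts and summary values other than the Slc1a2 to Slc1a3 ratio by sex, all stayed within 1.5 times of the value given, or kept their call. The number of the 9 genes called between brain and cerebellum was 6 to 7 when each library was left out in turn, and 5 (1 higher and 4 lower in brain) without female brain 1, female cerebellum 2 and male cerebellum 3 together. The numbers against the non-neural tissues stayed at 9 and those for sex at 0. The direction turned for Gfap, brain minus cerebellum, which was -0.06 in the report. With each library left out it ran from -0.21 to 0.27. It was positive at 0.02, 0.08 and 0.27 without female brain 2, female cerebellum 2 or male cerebellum 3. Without female brain 1, female cerebellum 2 and male cerebellum 3 together, which held the 3 highest Gfap values, it was 0.27. The direction turned for Hopx against the non-neural tissues too, at -0.47 with heart and colon alone. The cause was not tested. The difference in the log2 ratio of Slc1a2 to Slc1a3 was 2.39 in females and 2.90 in males, where 3 libraries against 3 cannot reach an exact permutation p below 0.1, and 2.53 to 2.78 with each library left out.

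With the replicate block, which adds the replicate number within each sex to the model, 7 of the 9 genes were called between brain and cerebellum (1 higher and 6 lower in brain), 9 and 9 against the non-neural tissues and 0 for sex, and 4225 and 2883 of all genes were called higher and lower in brain. Same-numbered brain and cerebellum libraries deviated together with r of -0.03 to 0.08, so the numbers were not taken to pair the libraries. Counts of the 9 genes in brain and cerebellum were at least 155 in every library, so depth did not limit these levels, while Aqp4 in the gonads rests on 2 to 6 counts. With other lengths or scaling, 29 recomputed FPKM levels moved by more than the spread between libraries, without a change in any test.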
